A study of Mus musculus with 6 samples.

Results

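The chemokine system of the mouse cochlear lateral wall was described from 47 genes among the 17091 genes of a deposited expression table. The genes were chosen by name: symbols of the Ccl, Cxcl, Ccr, Cxcr, Ackr, Xcl and Xcr families followed by a number, with Cx3cl1, Cx3cr1 and Ccrl2. They comprise 27 ligands, 15 signalling receptors and 5 atypical receptors. The naming rule uses no measured value, but it was set with earlier results of these data known. Bulk RNA was sequenced from the lateral wall of 3 old mice aged 2.5 years and 3 young mice aged 2 months, 1 library per mouse. All mice were CBA/CaJ, an inbred strain, with no transgene or treatment named in the labels, and each library pooled both cochleas of 1 mouse. The lateral wall is the stria vascularis, which secretes potassium into endolymph, together with the spiral ligament. Titles and tissue labels give this tissue, but the source labels read auditory nerve cells. Chemokine genes that the table given here does not list, such as the Cxcl13 receptor gene Cxcr5, were not analysed here.

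Chemokines are small secreted proteins that guide the movement of leukocytes and are named after the spacing of their first cysteines (CC, CXC, CX3C and XC). They act on receptors with several membrane-spanning helices that couple to inhibitory G proteins, and most receptors accept more than 1 ligand. Atypical receptors bind chemokines without this coupling and remove, carry or present them. In the lateral wall, resident macrophages lie along the strial capillaries and among the fibrocytes of the ligament, and Cx3cr1 is commonly used to mark them.

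The values are normalised read counts, that is, reads per gene divided by a size factor of the library. Recovered reads numbered 37577314 to 39103398 in old and 37055355 to 38179961 in young libraries. The 6 strial and 6 ligament markers were present in every library, with summed values of 206393 to 301051 in old and 269168 to 297434 in young libraries for the stria and of 527019 to 1119592 in old and 1145239 to 1326045 in young libraries for the ligament. Sums of ligament, bone and muscle markers were lower in every old library, for the ligament by a narrow margin. Of the 6 ligament markers 1, Otos, was called lower (log2 fold change -1.71, limma adjusted p = 0.00321). The 5 bone markers, 4 of them called lower, summed to 969 to 1202 in old and 2772 to 5108 in young libraries, and the 5 muscle markers, 2 of them called lower, to 70.1 to 140 in old and 256 to 459 in young libraries. The part of such differences in tissue makeup in the results was not tested. The 10 neutrophil and marrow markers summed to 5305, 767 and 10314 in old replicates 1, 2 and 3, against 333 to 503 in young libraries. The 8 erythroid markers summed to 21076, 7122 and 42236 in the same old libraries and to 2874 to 4923 in young libraries. The 6 neuron and glia markers summed to 17411, 25103 and 28931 in the old libraries and to 9204 to 11012 in the young. Xist, an RNA of the inactive X chromosome, had 45.2 in old replicate 3, against 25668 and 27195 in the other old libraries and 24382 to 29162 in the young libraries, and the labels give no sex. In bulk tissue, fewer cells of a type and less RNA per cell cannot be told apart.

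Of the 47 genes, 15 were higher in old lateral wall and 0 were lower at a limma p under 0.05 after Benjamini-Hochberg adjustment over all 17091 genes of the table. The share higher was 31.9%, and among all genes 2.71% were called higher and 2.55% lower. At an unadjusted limma p under 0.05, 22 of the 47 were higher and 2 lower, where 1842 of all 17091 genes were higher and 1805 lower. With edgeR on recovered reads 16 were higher and 0 lower, where 2.73% of all genes were higher and 2.33% lower. With DESeq2, and likewise in the authors' deposited table, 19 were higher and 0 lower, where 5.82% of all genes were higher and 5.03% lower. The values of old and young libraries were fully apart, with old higher, in 19 of the genes (40.4%) and, with old lower, in 3 (6.38%), where the shares among all genes were 13.2% and 12.8%. The median log2 fold change, given throughout for log2(value + 1) and as old minus young, was 1.01, against -0.000969 over all genes. Of the 15 called genes, 14 changed 2-fold or more. By class, 7 of 27 ligands, 7 of 15 signalling receptors and 1 of 5 atypical receptors were called. The count of 15 was 8 without young replicate 3. Without old replicates 1 and 3 together, a setting chosen after seeing the data, it was 6 (Cxcl13, Cxcl1, Ccl5, Cxcl16, Cxcr4 and Cxcr6), and the count over all genes was 202 higher, against 463. That setting leaves 1 old library, assumed to vary like the young ones, and does not test where the transcripts come from.

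**Figure D1:**
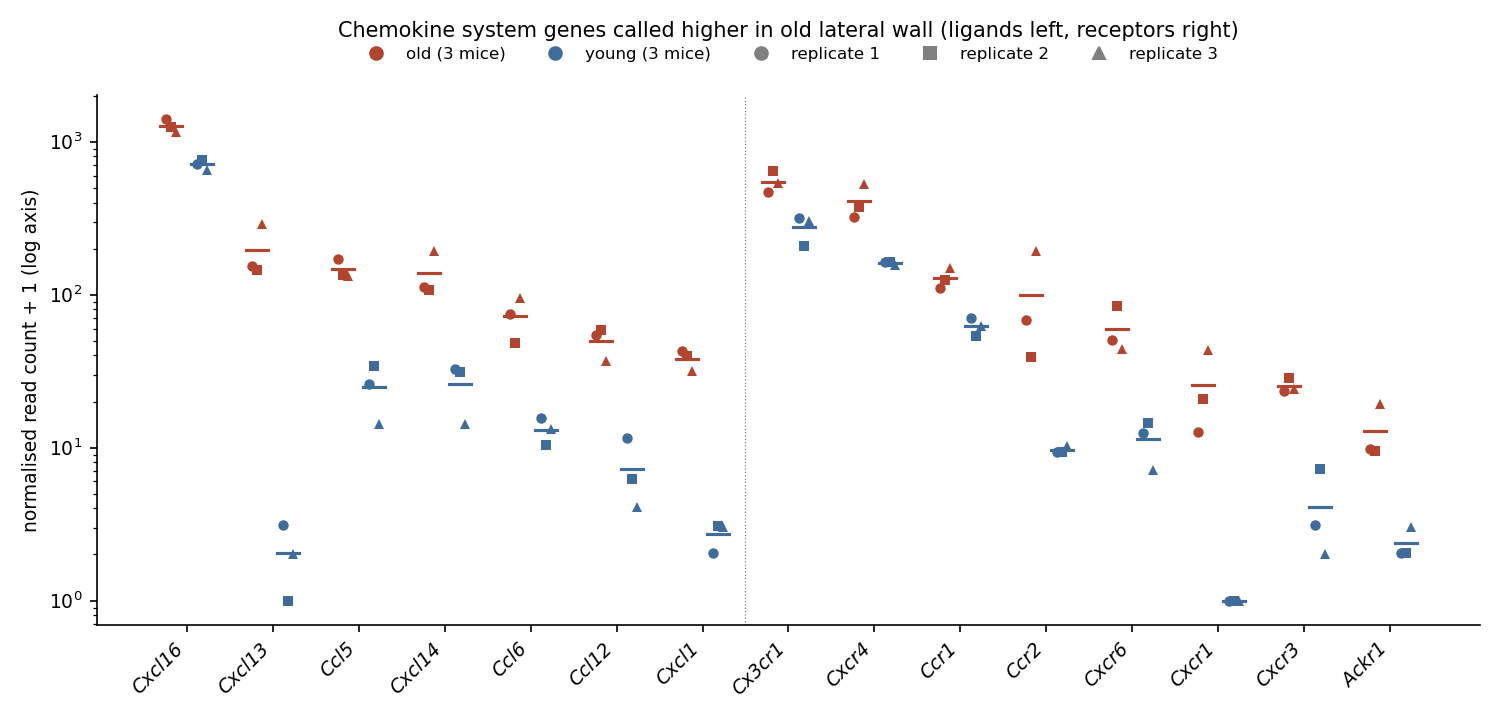
Normalised read count plus 1 (log axis) of the 15 called genes in each of 3 old and 3 young libraries, with ligands left and receptors right of the dotted line, symbols for replicates and bars for group means. Every old value lies above every young value of the same gene, and the widest gap is that of Cxcl13.

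**Figure D2:**
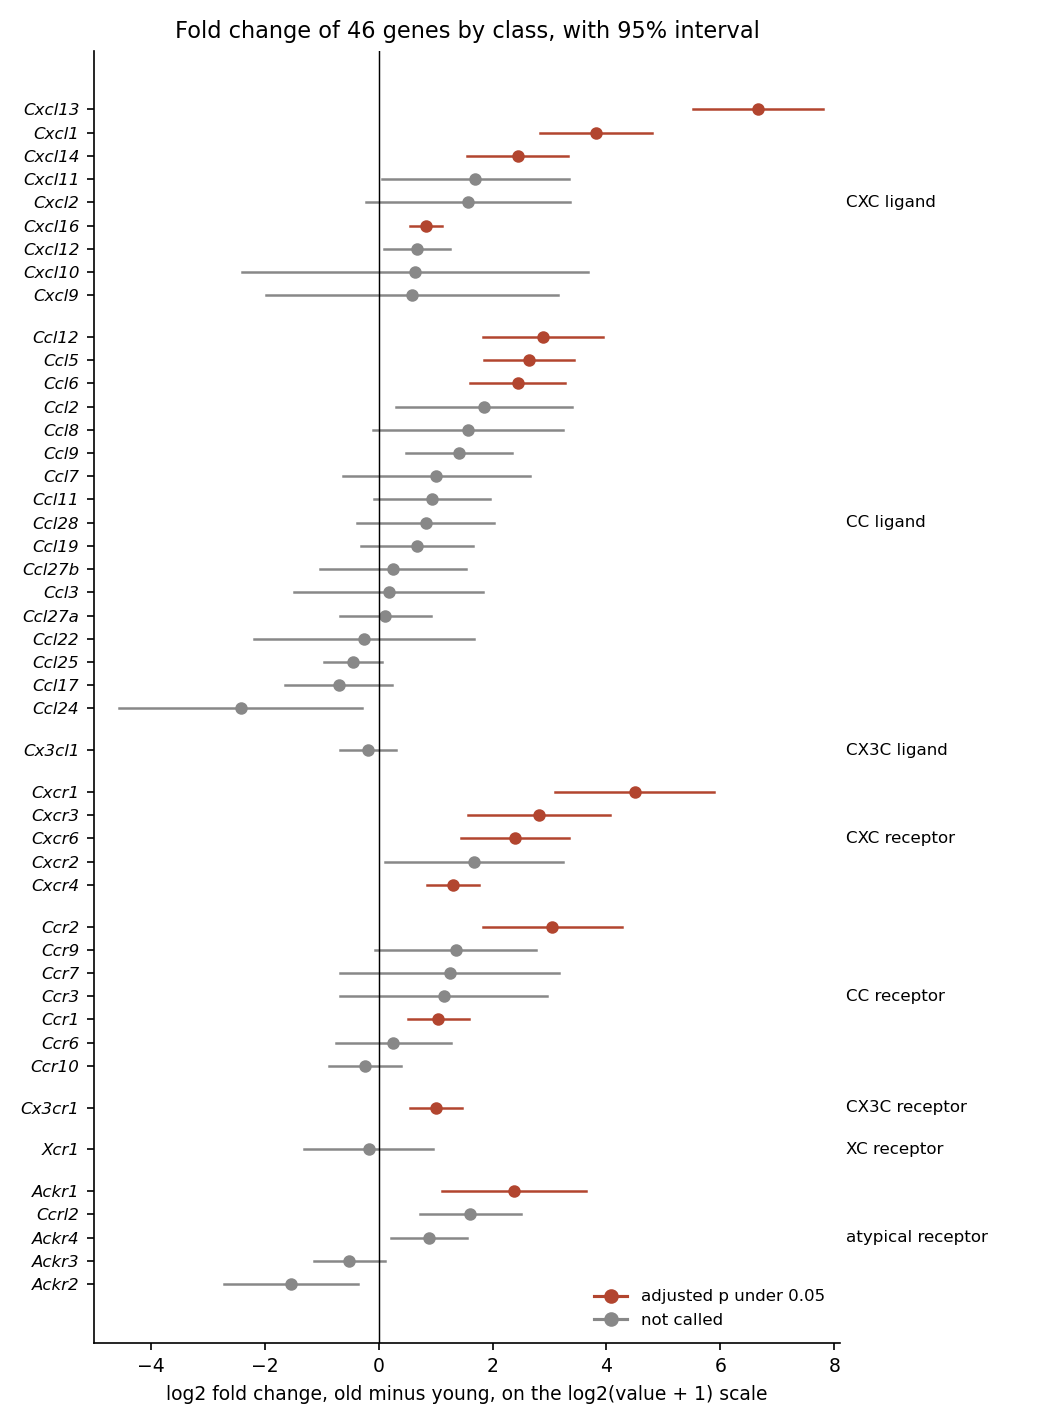
Log2 fold change, old minus young, of 46 of the 47 genes by class, with the 95% interval of the limma fit as a line and red for an adjusted p under 0.05. The 15 red points lie right of 0, and intervals are widest for Cxcl9 and Cxcl10.

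Cxcl13, which attracts B cells and organises lymphoid follicles, was the gene with the lowest adjusted p of the 47. It had 153, 144 and 289 normalised read counts in old replicates 1, 2 and 3, against 2.10, 0 and 1.02 in young replicates 1, 2 and 3. It was nearly silent in every young library and present at more than 100 in every old one. The log2 fold change was 6.66 ± 0.51 (SE, limma adjusted p = 0.000434). The old libraries held 611 reads and the young libraries 3, and the depth-corrected ratio of 188.5 had a 95% counting interval of 64.2 to 917. The gene lies on chromosome 5 from 95956951 to 95961068 (GRCm38). Of the 8 B and plasma cell markers, 3 were called higher, and their sum was 299, 426 and 629 in old replicates 1, 2 and 3 against 106 to 126 in young libraries. Among these markers Ms4a1, the gene of the B cell surface protein CD20, had 2.91, 3.78 and 6.73 in old and 0, 0 and 1.02 in young libraries. Their part in the Cxcl13 result was not tested.

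The neutrophil-attracting ligand Cxcl1 was higher in all 3 old libraries, while the nearby gene Cxcl2 was not called. Cxcl1 had 41.7, 38.8 and 30.7 normalised read counts in old and 1.05, 2.07 and 2.04 in young replicates 1, 2 and 3. The old values lay close together, and old replicate 2 stood at nearly the level of old replicate 1. The log2 fold change was 3.82 ± 0.44 (limma adjusted p = 0.00267). Cxcl2, a ligand of the same receptor, had 2.91, 12.3 and 9.61 in old and 4.20, 0 and 3.06 in young libraries, so the groups overlapped (log2 fold change 1.57, 95% interval -0.22 to 3.36). The promoter windows of this pair are shown because both hold matches to a kappaB motif, the site type of NF-kappaB, and the levels of the pair can be read against them. Sequences are RefSeq's on GRCm38.p6, plus strand, from 250 bases before to 50 bases after the start, at chr5:90890995-90891294 for Cxcl1 and chr5:90903649-90903948 for Cxcl2, with the matches in capitals.
Cxcl1: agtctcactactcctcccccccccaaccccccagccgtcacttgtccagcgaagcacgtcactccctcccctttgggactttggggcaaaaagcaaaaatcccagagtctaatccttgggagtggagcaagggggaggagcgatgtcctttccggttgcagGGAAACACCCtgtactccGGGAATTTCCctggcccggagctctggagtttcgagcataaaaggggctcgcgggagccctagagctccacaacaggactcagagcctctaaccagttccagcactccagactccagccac
Cxcl2: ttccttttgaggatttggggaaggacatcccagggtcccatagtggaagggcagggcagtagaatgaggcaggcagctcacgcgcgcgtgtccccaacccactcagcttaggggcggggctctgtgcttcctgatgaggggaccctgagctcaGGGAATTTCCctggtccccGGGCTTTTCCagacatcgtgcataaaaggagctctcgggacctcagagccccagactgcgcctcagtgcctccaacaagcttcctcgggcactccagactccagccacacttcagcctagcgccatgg
The motif was searched on both strands as GGG, any 2 bases and TTTCC. Matches began 89 and 71 bases before the start in Cxcl1 and 97 and 78 bases before it in Cxcl2. The table held 46 promoters for 37 of the 47 genes, and 4 of these promoters (8.7%) had a match, those of Cxcl1, Cxcl2, Ccl9 and Ccr3, against 1.63% of 32851 mouse promoters. A match describes letters in the window and not a bound site, and sites spelled otherwise were not counted.

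Of the neutrophil receptor genes Cxcr1 and Cxcr2, the first was called and the second was not. Cxcr1, a neutrophil receptor, had 11.6, 19.9 and 42.3 normalised read counts in old replicates 1, 2 and 3 and no read in any young library. With 77 reads in the old libraries and a floor of 3 reads over the young group, the pooled level was at least 23.8-fold higher in old. That bound covers counting error only and not the spread between mice. The log2 fold change of Cxcr1 was 4.49 ± 0.62 (limma adjusted p = 0.00572). Cxcr2, the main receptor of mouse neutrophils for Cxcl1 and Cxcl2, had 65.0, 18.9 and 153 in old replicates and 11.5, 17.6 and 25.5 in young replicates 1, 2 and 3. Old replicate 2, the old library with the lowest sum of neutrophil and marrow markers, lay within the young range. Cxcr1 did not follow this order, since old replicate 2 stood above old replicate 1. The log2 fold change of Cxcr2 was 1.68 ± 0.68 (limma adjusted p = 0.205), and without old replicate 2 it was 2.46 (limma adjusted p = 0.0174). Among the other fits that left out 1 library it fell as low as 0.98, with limma adjusted p up to 0.395. Of the 10 neutrophil and marrow markers 2 were called higher, and the neutrophil surface gene Ly6g had 45.6, 0.946 and 94.2 in the old libraries against 2.10 to 3.11 in the young. The part of these cells in the Cxcr1 and Cxcr2 values was not tested.

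The interferon-induced ligands Cxcl9, Cxcl10 and Cxcl11, which attract activated T cells through Cxcr3, were highest in old replicate 1. Cxcl9 had 112, 7.56 and 2.88 normalised read counts in old and 7.34, 8.30 and 13.3 in young replicates 1, 2 and 3. Cxcl10 had 734, 65.2 and 46.1 in old and 21.0, 121 and 226 in young libraries. Cxcl11 had 186, 59.6 and 21.1 in old and 14.7, 13.5 and 31.7 in young libraries. For Cxcl9 and Cxcl10, old replicates 2 and 3 lay within or below the young range. For Cxcl11, old replicate 2 lay above all young libraries and old replicate 3 within their range. None of the 3 genes was called (limma adjusted p of 0.816, 0.828 and 0.223). Without old replicate 1, the log2 fold changes of Cxcl9 and Cxcl10 were -0.84 and -0.60, and that of Cxcl11 was 0.91 (limma adjusted p of 0.424 for Cxcl11). The authors' deposited table gives Cxcl11 an adjusted p of 0.0256. Cxcl10 and Cxcl11 overlap Art3 on the opposite strand, and it is not stated whether counting used strand, so their reads are uncertain. Art3 was lowest in the old library where the ligands were highest, with 121, 458 and 356 in old replicates 1, 2 and 3 and 106 to 184 in young libraries.
The promoter of Cxcl10 is printed because it holds a match to the interferon-stimulated response element, searched on both strands as GAAA, any 2 bases and GAAA and set in capitals. The window lies at chr5:92348840-92349139 of GRCm38.p6 on the minus strand (RefSeq), and the match begins 213 bases before the start.
Cxcl10: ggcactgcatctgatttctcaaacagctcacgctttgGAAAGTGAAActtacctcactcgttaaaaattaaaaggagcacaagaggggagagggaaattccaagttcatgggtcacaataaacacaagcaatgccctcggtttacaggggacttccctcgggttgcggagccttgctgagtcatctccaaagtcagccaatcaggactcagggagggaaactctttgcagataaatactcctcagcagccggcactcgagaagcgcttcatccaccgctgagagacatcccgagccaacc
This motif was found in 3 of the 46 promoters (6.52%), those of Cxcl10, Cxcl14 and Ccl19, against 3.44% of all promoters. The core of the binding site of the myeloid factor PU.1, searched as GAGGAAG, was found in 6 of the 46 promoters against 13.6% of all promoters.

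**Figure D3:**
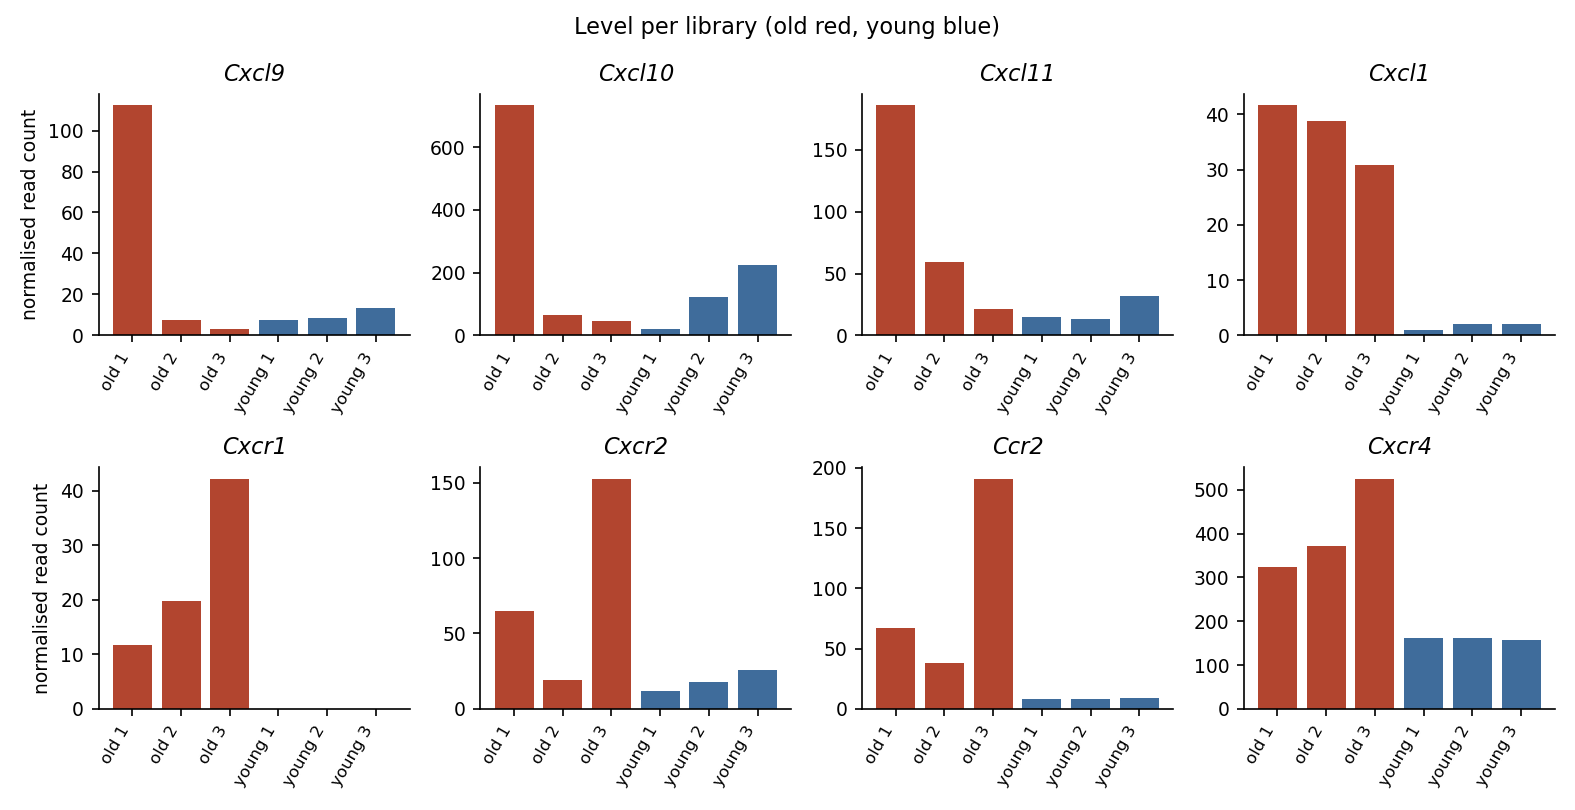
Normalised read count per library of 8 genes, with 3 old libraries in red left of 3 young libraries in blue and a separate axis from 0 for each gene. Cxcl9, Cxcl10 and Cxcl11 peak in old replicate 1, Cxcr2 and Ccr2 in old replicate 3, and Cxcl1 and Cxcr4 are high in all 3 old libraries.

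Cxcr3, the receptor of these interferon-induced ligands on T cells, was not highest in old replicate 1. It had 22.3, 27.4 and 23.1 normalised read counts in old and 2.10, 6.22 and 1.02 in young replicates 1, 2 and 3. The 3 old libraries were nearly equal and all lay above the young. The log2 fold change was 2.82 ± 0.55 (limma adjusted p = 0.0226), and the call was lost without old replicate 3, young replicate 1 or young replicate 3 (limma adjusted p of 0.0591, 0.0654 and 0.0883). The gene lies on the X chromosome from 101731535 to 101734269. Of the 8 T and NK cell markers, 2 were called higher, and their sum was 601, 755 and 1147 in old replicates 1, 2 and 3 against 338 to 421 in young libraries. Cd4, which was not called, supplied 195, 358 and 853 of the old sums and 108 to 124 of the young sums. Cd2 and Cd8a overlapped between groups. The part of these markers in the Cxcr3 value was not tested.

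Cxcl16, a membrane-anchored ligand, and its receptor Cxcr6, found on subsets of T cells, both rose. Cxcl16 had 1402, 1239 and 1155 normalised read counts in old and 715, 757 and 655 in young libraries. This was a small rise with little scatter, and its SE was the smallest among the called genes (log2 fold change 0.83 ± 0.12, limma adjusted p = 0.00766). Cxcr6 had 49.4, 83.2 and 43.2 in old and 11.5, 13.5 and 6.13 in young libraries, with old replicate 2 the highest. Its log2 fold change was 2.39 ± 0.42 (limma adjusted p = 0.0153, and 0.0638 without young replicate 3). Each gene overlaps another on the opposite strand. Zmynd15, opposite Cxcl16, averaged 65.2 in old and 66.9 in young libraries. Fyco1, opposite Cxcr6, averaged 4134 in old and 3936 in young libraries. Neither partner was called, and because strand is not stated the reads of both chemokine genes are uncertain.

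Among CC ligands of inflammation, Ccl5, Ccl6 and Ccl12 rose. Ccl5, which T cells, NK cells and macrophages release, had 170, 134 and 132 normalised read counts in old and 25.2, 33.2 and 13.3 in young replicates 1, 2 and 3. The old values lay close together, and the fold of the means was 6.08 (log2 fold change 2.64 ± 0.35, limma adjusted p = 0.00492). Ccl6, a rodent ligand of Ccr1, had 73.7, 47.3 and 94.2 in old and 14.7, 9.33 and 12.3 in young libraries (log2 fold change 2.44 ± 0.37, limma adjusted p = 0.00855). It overlaps E230016K23Rik on the opposite strand, so its reads are uncertain. Ccl12, a mouse ligand of Ccr2, had 53.3, 57.7 and 35.5 in old and 10.49, 5.19 and 3.06 in young libraries (log2 fold change 2.89 ± 0.47, limma adjusted p = 0.0114). All 3 genes lie with Ccl2, Ccl3, Ccl7, Ccl8, Ccl9 and Ccl11 on chromosome 11 between 82035571 and 83649355. Ccl9, a neighbour of Ccl6 and another Ccr1 ligand, had 88.2, 32.2 and 74.0 in old and 23.1, 25.9 and 17.4 in young libraries. Its groups were apart, with old replicate 2 nearest to the young, but it was not called (log2 fold change 1.41 ± 0.41, limma adjusted p = 0.0896). The authors' deposited table gives Ccl9 an adjusted p of 0.0211.

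The monocyte-attracting ligand Ccl2 overlapped between groups. Ccl2 had 54.3, 58.6 and 15.4 normalised read counts in old and 5.25, 6.22 and 24.5 in young replicates 1, 2 and 3. Old replicate 3 lay below young replicate 3, and the gene was not called (log2 fold change 1.85 ± 0.68, limma adjusted p = 0.163). Ccl7, Ccl8 and Ccl3 stayed under 16 in every library, and none was called. Ccl8 had 16 reads in the old and 3 in the young libraries, with a ratio of 4.94 (95% counting interval 1.41 to 26.4).

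Ccr2, the receptor by which monocytes leave the marrow, had 66.9, 37.8 and 191 normalised read counts in old and 8.39, 8.30 and 9.19 in young libraries. The young values were nearly equal and the old ones spread widely, with the highest in old replicate 3. Marker sums of macrophages, T and NK cells, B and plasma cells, neutrophils, erythroid cells, endothelium, neurons and glia also peaked in that library. Those of ligament, muscle and platelets did not. The part of any of these in the Ccr2 value was not tested. The log2 fold change of Ccr2 was 3.05 ± 0.54 (limma adjusted p = 0.0162). The call of Ccr2 was lost without any 1 of the young libraries (limma adjusted p of 0.0545 to 0.0682). Ccr1, a receptor of macrophages and neutrophils for Ccl5, Ccl6 and Ccl9, had 110, 124 and 149 in old and 69.2, 52.9 and 61.3 in young libraries. Its log2 fold change was 1.05 ± 0.24 (limma adjusted p = 0.0385). That call was lost without old replicate 2 or 3 and without any 1 of the young libraries, with limma adjusted p up to 0.148.

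The fractalkine receptor rose, and its ligand was not called. Cx3cr1, which marks resident macrophages and monocytes, had 464, 637 and 538 normalised read counts in old and 316, 206 and 301 in young libraries. All old values were higher, with a log2 fold change of 1.004 ± 0.20 (limma adjusted p = 0.0262). The call was lost without old replicate 3, young replicate 2 or young replicate 3, with limma adjusted p up to 0.0827. Its ligand Cx3cl1, a membrane-bound chemokine of neurons, endothelium and epithelium, had 1217, 2140 and 1221 in old and 1841, 1501 and 1695 in young libraries. Old replicate 2 was above and the other old libraries were below every young library, and the log2 fold change was -0.19 (95% interval -0.67 to 0.30, limma adjusted p = 0.673). Of the 10 macrophage markers, 5 were called higher, and their sum was 20716, 22374 and 30986 in old replicates 1, 2 and 3 against 6068 to 7072 in young libraries. Lyz2, a lysozyme gene that neutrophils also express, supplied 12180, 15280 and 21400 of the old sums. The macrophage receptor genes Csf1r, Cd163 and Mrc1 were not called, with log2 fold changes of 0.14, 0.36 and -0.29. The part of the number of macrophages in the Cx3cr1 result was not tested. The annotated Cx3cr1 gene overlaps several genes, including Wdr48 on the opposite strand, which averaged 2813 in old and 2520 in young libraries and was not called, and the reads of Cx3cr1 are uncertain for the same reason.

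Cxcl12 retains blood-forming and immune cells in tissues. Cxcr4, its signalling receptor, rose, with 323, 372 and 526 normalised read counts in old and 163, 162 and 156 in young libraries. The young values were nearly equal, and the log2 fold change was 1.31 ± 0.20 (limma adjusted p = 0.00951, and 0.0535 without young replicate 3). Cxcl12 itself had 2133, 2894 and 4361 in old and 2213, 1525 and 1959 in young libraries. Old replicate 1 lay within the young range, and the log2 fold change was 0.68 ± 0.25 (limma adjusted p = 0.174). Without 1 library it ranged from 0.40 to 0.92, with a limma adjusted p of 0.0468 without old replicate 1 and up to 0.433 otherwise. The authors' deposited table gives Cxcl12 an adjusted p of 0.0363. The sum of the 6 endothelial markers was ordered like Cxcl12 in the old libraries. It was 7343, 9706 and 13921 in old replicates 1, 2 and 3 and 7413 to 8539 in young libraries. The marker Kdr did not follow this order, with 759, 697 and 994 in old replicates 1, 2 and 3. The part of these markers in the Cxcl12 value was not tested. Ackr3, an atypical receptor that takes up Cxcl12, had 7396, 8563 and 4032 in old and 7736, 9406 and 10328 in young libraries. Old replicate 3 was lowest, the groups overlapped, and the log2 fold change was -0.52 (95% interval -1.14 to 0.10, limma adjusted p = 0.317).

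Per kilobase of annotated exon, a scale for a rough comparison of levels between genes, Ackr3 stood highest. The length joins all annotated exons of a gene and can exceed that of the transcripts present, so the order is approximate. Ackr3 averaged 1990 normalised read counts per kilobase in old and 2735 in young libraries. Cxcl16 followed with 419 in old and 235 in young, Cx3cl1 with 388 and 427, and Cxcl12 with 383 and 232 in old and young libraries. In old libraries these 3 levels were closer together than the spread of Cx3cl1 or Cxcl12 between old mice. Cxcr4 had 225 in old and 88.6 in young, and Ccl11 had 200 in old and 116 in young libraries. Cxcl13 had 170 per kilobase in old and 0.904 in young libraries, so a gene near the bottom of the order in young mice stood among the 7 highest in old mice. Ccl5 had 151 in old and 24.9 in young libraries.

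Cxcl14, a chemokine of epithelia and fibroblasts, rose, with 111, 107 and 192 normalised read counts in old and 31.5, 30.1 and 13.3 in young libraries. The log2 fold change was 2.44 ± 0.39 (limma adjusted p = 0.0107). It was called in all 6 fits that left out 1 library. The remaining tissue and lymphoid ligands, all not called, included Ccl11, an eotaxin, with 203, 273 and 174 in old and 151, 176 and 50.03 in young libraries. Young replicate 3 was far below the others, and the log2 fold change was 0.94 (95% interval -0.08 to 1.96). Ccl24, the other eotaxin listed, had 0, 6.62 and 0 in old and 3.15, 17.6 and 14.3 in young libraries, one of 2 genes with an unadjusted p under 0.05 and a lower mean in old. It was not called (log2 fold change -2.43 ± 0.94, limma adjusted p = 0.179). Ccl24 passed without old replicate 2 (limma adjusted p = 0.0409), while the other fits that left out 1 library gave limma adjusted p up to 0.465.

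Ccl25, which attracts gut-homing and thymic cells through Ccr9, had 86.3, 133 and 105 in old and 149, 134 and 153 in young libraries. Ccl17, a Ccr4 ligand, had 12.6, 13.2 and 6.73 in old and 18.9, 18.7 and 15.3 in young libraries. In both the old values were all lower than the young, for Ccl25 by a narrow margin, and neither passed the threshold (limma adjusted p of 0.300 and 0.378). Ccl19, Ccl28, Ccl27a, Ccl27b and Ccl22 overlapped between groups and stayed under 60 in every library. Reads of Ccl27a and Ccl27b cannot be assigned with certainty, since the 2 genes are near copies. Of the lymphoid and mucosal receptors, Ccr6, Ccr7, Ccr9, Ccr10, Ccr3 and Xcr1 were not called. Among them Ccr9 alone had groups apart, with 10.7, 8.51 and 13.5 in old and 1.05, 8.30 and 4.08 in young libraries. Ccr6, the Ccl20 receptor, had 40.4 in old replicate 3, against 15.1 to 18.9 in the other libraries. Ccr10 lay between 44.6 and 71.6 in all 6 libraries.

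Of the atypical receptors, Ackr1 was called. Ackr1, which binds inflammatory chemokines on venules, had 8.73, 8.51 and 18.3 normalised read counts in old and 1.05, 1.04 and 2.04 in young libraries (log2 fold change 2.38 ± 0.56, limma adjusted p = 0.0438). That call was lost in every fit that left out 1 library (limma adjusted p of 0.0570 to 0.135). Ackr1 overlaps Cadm3 on the same strand, whose values were 26.2, 105 and 126 in old replicates 1, 2 and 3 and 7.15 to 24.1 in young libraries, and its reads are uncertain. Ccrl2, which binds chemerin, had 122, 215 and 372 in old and 61.9, 57.0 and 93.9 in young libraries. Its groups were apart, with a log2 fold change of 1.61 ± 0.39, and it narrowly missed the threshold (limma adjusted p = 0.0516, and 0.0452 with edgeR). Ackr4, which removes Ccl19 and Ccl25, had 81.4, 65.2 and 88.4 in old and 54.6, 31.1 and 42.9 in young libraries, with the groups apart and a limma adjusted p of 0.128. Ackr2, a scavenger of inflammatory CC chemokines, had 5.82, 7.56 and 1.92 in old and 15.7, 14.5 and 15.3 in young libraries. It was lower in all 3 old libraries, but was not called (log2 fold change -1.55 ± 0.52, limma adjusted p = 0.129).

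Downstream of the receptors, 59 signalling genes were examined, namely G protein subunits, arrestins, kinases, Rac regulators and RGS proteins. Of these, 9 were called higher (15.3%, against 2.71% of all genes) and 1 lower (1.69%, against 2.55%), and the median log2 fold change was 0.04. The 4 with the smallest p were Lyn, Nckap1l, Fgr and Rac2. Lyn, a Src family kinase, averaged 705 ± 70.5 in old and 402 ± 27.1 in young libraries (SD, n = 3 each). Nckap1l, a leukocyte regulator of actin, averaged 737 ± 193 in old and 323 ± 40.0 in young libraries. Fgr, another Src family kinase, averaged 79.7 ± 45.9 in old and 14.8 ± 1.55 in young libraries, and the GTPase gene Rac2 averaged 289 ± 142 in old and 69.6 ± 19.6 in young libraries. Their log2 fold changes were 0.80, 1.16, 2.21 and 1.96, with limma adjusted p of 0.0139, 0.0147, 0.0198 and 0.0211. The gene called lower was Gnao1, a G protein alpha subunit abundant in neurons, with a log2 fold change of -0.57 ± 0.12 (limma adjusted p = 0.0308). The higher calls numbered 0 without young replicate 3, 1 without young replicate 2, 3 without young replicate 1, 5 without old replicate 1 and 5 without old replicate 3. Gnao1 was called without old replicate 3, but in none of the other 5 fits that left out 1 library.

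The mean log2 level of the 47 genes lay 1.27, 1.24 and 1.09 above its young mean in old replicates 1, 2 and 3, and its classes differed between these libraries. CXC ligands lay 2.68, 1.89 and 1.74 above it and CC ligands 0.876, 1.08 and 0.326, both lowest in old replicate 3. CXC receptors lay 2.29, 2.33 and 3.0 above it and CC receptors 0.835, 0.794 and 1.47, both highest in old replicate 3. The macrophage markers lay 1.23, 0.855 and 1.27 above it, and the T and NK cell markers 2.10, 1.67 and 2.29. The neutrophil and marrow markers lay 3.55, 0.725 and 4.42 above it. Their part in the levels of the 47 genes was not tested. Of the 15 called genes, 3 were highest in old replicate 1, 4 in old replicate 2 and 8 in old replicate 3. For the 35 of the 47 genes whose mean reached 10, log2 values had a median SD of 0.496 in old and 0.335 in young libraries. For the 15234 genes of the whole table that reached it, the median SD was 0.197 in old and 0.153 in young libraries. By position, the called receptor genes Ccr1, Ccr2 and Cxcr6 lie on chromosome 9 between 123806475 and 124113557. Of the 6 CXC ligand genes on chromosome 5 between 90891241 and 95961068, Cxcl1 and Cxcl13 were called and Cxcl2, Cxcl9, Cxcl10 and Cxcl11 were not. None of the neighbours Ccl17, Ccl22 and Cx3cl1 on chromosome 8 was called.

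**Figure D4:**
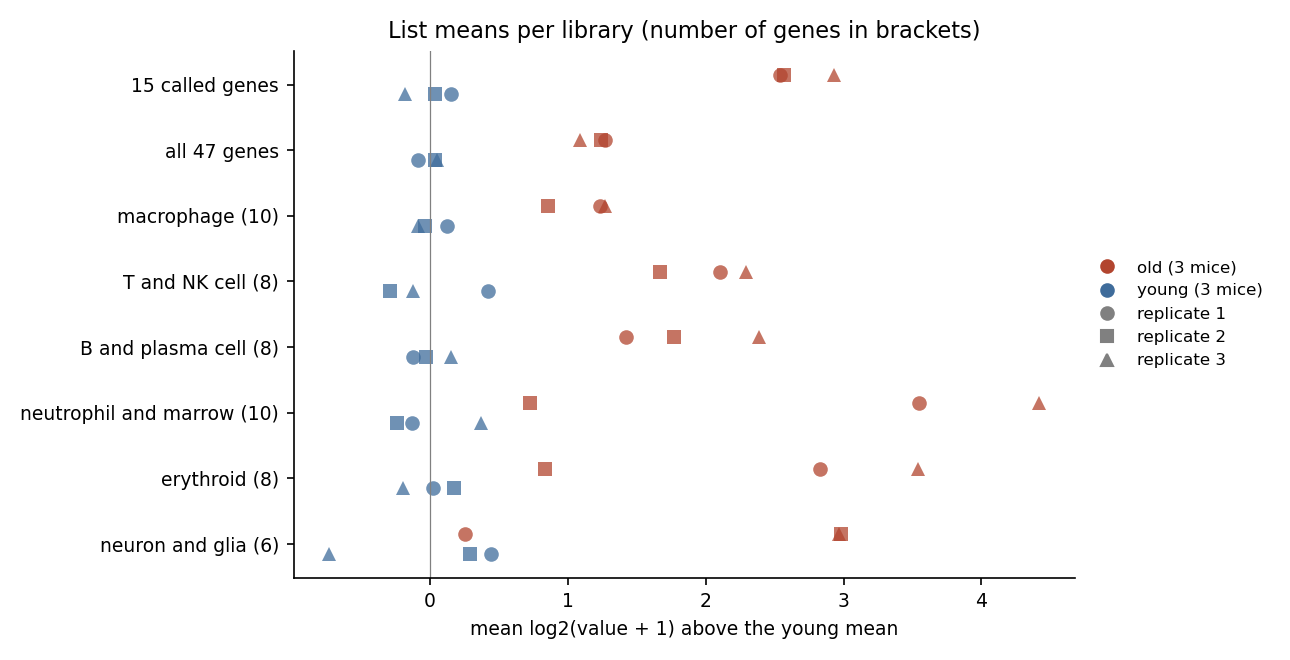
Mean log2(value + 1) above the young mean for the chemokine system genes and for marker lists of other cells, one symbol per library, old in red and young in blue. The 47 genes lie between 1.09 and 1.27 in the old libraries, while neutrophil and marrow markers lie at 0.725 in old replicate 2 and at 3.55 and 4.42 in old replicates 1 and 3, and the 15 called genes were chosen by this same contrast.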

How the data were processed

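Per the labels' protocols, RNA came from the miRNeasy Mini Kit and libraries from the TruSeq RNA kit. The submitters' processing notes name Partek, TopHat2, DESeq2 and mm10, with no roles. Annotation and strand setting are not given in the sources used here. As deposited, each value is a signal per gene and library, the read count divided by a size factor. Division by the smallest step (0.9456 to 1.049) gave numbers within 0.1 of a whole in 99.9% of values, and these recovered reads were used in edgeR and DESeq2. Beside these, the authors deposited for each gene a p-value with its adjusted form and a fold change, a score with a minus sign for falls.

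Old minus young was fitted with limma 3.58.1 (trend and robust variance, R 4.3.3) on log2(value + 1) over all 17091 genes with no filter, because the values are normalised, and called at an adjusted p under 0.05. This scale understates changes of genes with few reads. The lowest number of reads over 6 libraries was 9 for any gene, so a gene silent in young mice is listed because of its old level. The value after ± is an SE on log2 fold changes and an SD on means. With 3 against 3 mice an exact permutation test cannot go below p = 0.1 and none was run. Alternatives were edgeR 4.0.16, DESeq2 1.42.0, quantile normalisation, other pseudocounts, filters of 10 and 50, no trend, the replicate number as a block, and leaving out libraries. All 47 symbols were found in GENCODE M21, and 14 overlap another gene. Counting intervals and floors (3 reads per group) cover counting error only. The 47 genes, the lists and the tests were chosen with earlier results of these data known. Full values were given for called genes, for Cxcl13, Cxcl1, Ccl5, Cx3cl1, Cx3cr1, Cxcl12, Cxcr4 and Ackr3 in every case and for the 3 genes with the highest mean, and other genes were summarised or chosen after their values were seen. Scripts were tested on simulated data. Some genes are not reported here.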

Additional observations from a re-analysis of the deposited data

How the results depend on the processing

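The count of chemokine system genes called higher in old (15) was 7 at an adjusted p under 0.01, 8 with a mean of at least 50, 6 without old replicates 1 and 3, and 8 to 16 without 1 library (8 without young replicate 3). It lay between 11 and 19 under the other alternatives. The count called lower (0) was 0 to 1 without 1 library. The median log2 fold change (1.01) was 1.28 with DESeq2 and in the authors' deposited table, 1.25 and 1.24 with edgeR (TMM and DESeq2 size factors), 0.64 with a pseudocount of 10, 0.89 with quantile normalisation, 1.21 without old replicates 1 and 3 and 0.95 to 1.09 without 1 library. Over all genes, 463 were called higher and 435 lower. These counts were 976 and 843 with DESeq2, 975 and 843 in the authors' deposited table, 119 and 91 at 0.01, 208 and 129 without trend, 139 to 554 and 91 to 580 without 1 library, and 202 higher without old replicates 1 and 3. Signalling genes called higher (9) were 17 with DESeq2 and for the authors, 0 at 0.01, 1 without trend, 1 without old replicates 1 and 3 and 0 to 12 without 1 library. The 1 called lower was 0 at 0.01, 0 without trend and 0 to 1 without 1 library.

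Log2 values were compared between old and young mice after each gene's mean in its group was subtracted. Same-numbered mice had Pearson r of -0.244, -0.0965 and -0.0879 (13308 genes), and differently numbered mice had -0.146 to 0.235. With 3 mice per group, these values cannot decide whether the numbers pair the samples. With the replicate block, 230 genes were called higher and 176 lower, and 12 chemokine system genes and 2 signalling genes were higher, with 0 signalling genes lower.

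Among single genes not called, the log2 fold change had the opposite sign for Ccl22 with edgeR (0.29 with TMM, 0.28 with DESeq2 size factors), DESeq2 (0.29), the authors' deposited values (0.30), a pseudocount of 10 (0.021) and without old replicates 1 and 3 (1.37). With quantile normalisation Ccl27a had -0.15 and Ccr6 -0.0066. Without old replicates 1 and 3, Ccl27b had -0.10, Ccl3 -0.60, Ccr6 -0.20, Cx3cl1 0.35, Cxcl10 -0.36 and Cxcl9 -0.27. Without 1 library, the values ranged over -1.07 to 0.39 for Ccl22, -0.14 to 0.44 for Ccl27a, -0.085 to 0.42 for Ccl27b, -0.10 to 0.71 for Ccl3, -0.19 to 0.49 for Ccr6, -0.60 to 1.38 for Cxcl10 and -0.84 to 1.59 for Cxcl9. The cause was not tested. None of the 15 called genes changed sign under the alternatives run. DESeq2 also called Ccl9, Ccrl2, Cxcl11, Cxcl12 and Cxcr2 higher, and did not call Ackr1.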

Other observations

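The platelet chemokines Ppbp and Pf4 fall outside the naming rule. Ppbp, also known as Cxcl7, had 293, 2.84 and 145 normalised read counts in old replicates 1, 2 and 3 and 1.05, 0 and 16.3 in young replicates 1, 2 and 3. Pf4, also known as Cxcl4, had 116, 40.7 and 126 in old and 42.0, 28.004 and 36.8 in young libraries. Both were high in old replicates 1 and 3, the libraries with many neutrophil and erythroid transcripts, but without a call (limma adjusted p of 0.252 for Ppbp and 0.142 for Pf4). Other platelet genes differed. Itga2b, the gene of a platelet integrin, had 483, 217 and 378 in old and 284, 370 and 385 in young libraries. The log2 fold changes of Itga2b and Gp1ba were -0.01 and 0.10. Those of Gp9 and Gp1bb were 2.32 and 1.06, and every old value lay above every young value of the same gene. Neither Gp9 nor Gp1bb was called (limma adjusted p of 0.103 and 0.203).

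Neither gene of the chemerin pair was called. Rarres2, which encodes chemerin, had 363, 372 and 270 in old and 265, 225 and 194 in young libraries, so the groups were apart by a narrow margin (log2 fold change 0.55 ± 0.20, limma adjusted p = 0.150). Its signalling receptor Cmklr1 had 714, 463 and 534 in old and 551, 1010 and 1289 in young libraries with overlapping groups (log2 fold change -0.67 ± 0.30, limma adjusted p = 0.251). Dpp4, a protease that trims chemokines, averaged 5117 ± 575 in old and 4595 ± 802 in young libraries, and Mif, a cytokine that binds chemokine receptors, averaged 2529 ± 257 in old and 2576 ± 308 in young libraries (SD, n = 3 each). Neither was called.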
